A study of Mus musculus with 15 samples.

Results

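MYC network, D-type cyclin and G1 kinase transcripts were followed in bone marrow-derived macrophages (BMDMs) as 10 named genes: Myc, its partner Max, the MXD repressors Mxd1, Mxd4 and Mxi1, the D-type cyclins Ccnd1, Ccnd2 and Ccnd3, the kinase Cdk6 and the kinase inhibitor Cdkn1b. The genes were taken by symbol from the 55385 genes of the count table, and all 10 were among the 13005 genes that passed the low-count filter and were tested. The RNA-seq data were 15 libraries from female 6-week BALB/c mice. Macrophages from 2 STAT5fl/fl mice (112 and 113) and 3 STAT5cKO mice (114, 115 and 116) were each treated for 2 h with DMEM, with 20 ng/mL recombinant mouse GM-CSF (rmGM-CSF) in DMEM, or with medium conditioned by 4T1 mouse mammary tumor cells (4T1 CM). Both genotypes carried the floxed Stat5a and Stat5b locus, and in STAT5cKO mice Csf1r-iCre, a recombinase driven by the Csf1r promoter that is active in myeloid cells and in part of the lymphocytes, had deleted it. Because every mouse gave 1 library per treatment, each group held 2 or 3 animals, and 1 STAT5fl/fl replicate had been removed by the authors in quality control.

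MYC is a transcription factor that binds DNA as a heterodimer with MAX and drives cell growth, ribosome production and entry into the cell cycle. MXD1, MXD4 and MXI1 bind the same partner and the same E-box sites, and recruit repressors there. D-type cyclins join CDK4 or CDK6 to phosphorylate the retinoblastoma protein, and p27, the product of Cdkn1b, holds back cyclin-CDK complexes. In macrophages, Myc and the D-type cyclins are known as early genes of the response to growth factors such as M-CSF and GM-CSF.

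Library totals ranged from 16016736 to 22883108 counted fragments. Stat5a had 0 to 3 fragments and Stat5b 0 to 4 in every STAT5cKO library, against 637 to 918 and 977 to 1654 in the STAT5fl/fl libraries. All 7 macrophage markers examined (Adgre1, Cd68, Csf1r, Itgam, Lyz2, Fcgr1 and Mertk) were above 1 normalized CPM (counts of a gene scaled to library size) in every group, while the lists of 3 T cell, 3 erythroid and 3 mast cell markers stayed at or under 0.0909 CPM in sum and 3 B cell markers at or under 0.227 CPM. The sums of 6 neutrophil and progenitor markers (0.23 to 2.45 CPM) and of 4 dendritic cell markers (1.01 to 4.11 CPM) were low, and the dendritic sum was higher with rmGM-CSF (2.14 to 4.11 and 2.59 to 3.58 CPM in STAT5fl/fl and STAT5cKO) than in DMEM (1.01 to 1.27 and 1.03 to 1.39). Of 4 epithelial markers, Epcam, Krt8 and Krt18 were at or under 0.189 CPM in every library, while Cdh1 reached 4.33 CPM. The epithelial sum was 1.18 to 1.43 CPM in STAT5fl/fl against at most 0.049 in STAT5cKO with rmGM-CSF, and 3.16 to 4.33 against 1.23 to 2.17 CPM with 4T1 CM. The summed macrophage marker level was higher in STAT5cKO than in STAT5fl/fl libraries under each treatment without overlap (in DMEM, 29900 to 35600 against 23800 to 24100 CPM, mostly Lyz2), and so was the low summed level of 4 stromal markers (2.09 to 4.03 against 0.637 to 1.43 CPM in DMEM). The STAT5cKO libraries treated with 4T1 CM were also deeper (21624565 to 22883108 fragments) than those of STAT5fl/fl (19950352 to 21379480). The part of these marker levels and depths in the differences below was not tested. In bulk RNA, a change in the share of cells that express a gene and a change in RNA per cell cannot be told apart.

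The promoters of the MXD genes are shown because these 3 repressors were all higher in STAT5cKO than in STAT5fl/fl after 4T1 CM. RefSeq (GRCm38.p6) start sites were matched for 7 of the 10 genes, with none listed for Myc, Ccnd1 or Ccnd2, and gave 10 windows of 250 bases upstream of a start. Stretches of 240 bases that end 10 bases before the start are printed 5′ to 3′ on the gene's strand. Capitals mark matches to the E-box CACGTG or to ACGTG, which is CACGTG without its first C.
Mxd1, chr6:86669170-86669409, minus strand: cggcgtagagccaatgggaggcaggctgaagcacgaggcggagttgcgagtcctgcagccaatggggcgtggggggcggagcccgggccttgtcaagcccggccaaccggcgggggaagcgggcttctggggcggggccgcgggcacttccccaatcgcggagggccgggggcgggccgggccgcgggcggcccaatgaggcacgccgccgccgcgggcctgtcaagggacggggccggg
Mxd4, chr5:34187721-34187960, minus strand: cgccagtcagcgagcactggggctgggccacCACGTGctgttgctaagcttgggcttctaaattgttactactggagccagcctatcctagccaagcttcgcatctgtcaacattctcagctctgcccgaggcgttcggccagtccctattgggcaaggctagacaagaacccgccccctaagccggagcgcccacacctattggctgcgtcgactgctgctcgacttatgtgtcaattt
Mxi1, first start, chr19:53310256-53310495, plus strand: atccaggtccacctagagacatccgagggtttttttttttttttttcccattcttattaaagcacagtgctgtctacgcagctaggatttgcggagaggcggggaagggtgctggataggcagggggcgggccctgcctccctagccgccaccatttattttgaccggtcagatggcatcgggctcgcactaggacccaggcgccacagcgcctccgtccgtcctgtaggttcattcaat
Mxi1, second start, chr19:53329163-53329402, plus strand: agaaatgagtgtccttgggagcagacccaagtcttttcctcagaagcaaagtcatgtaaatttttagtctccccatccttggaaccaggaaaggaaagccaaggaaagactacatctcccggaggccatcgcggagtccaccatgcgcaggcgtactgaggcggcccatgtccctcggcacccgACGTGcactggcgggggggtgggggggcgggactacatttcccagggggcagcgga
The E-box CACGTG was present in the Mxd4 window, 219 bases before the start, and in the Cdk6 window, 220 bases before the start, and 6.02% of the 32851 RefSeq windows held it. ACGTG without the full E-box was found in the second Mxi1 window, 66 bases before the start, and in a window of a further Mxi1 start. With or without the full E-box, ACGTG occurred in 16.6% of all windows. The spacing TTCNNNGAA, the core of a STAT site, was in 0 of the 10 windows and in 7.02% of all windows. The forkhead motif GTAAACA was in 1 Ccnd3 window and in the window of the further Mxi1 start, against 3.17% of all windows. All 4 motifs were searched on both strands.

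Without stimulation, repressor transcripts outnumbered those of Myc per kilobase. In transcripts per kilobase (RPKM, normalized CPM divided by exon length), the order in the 2 unstimulated STAT5fl/fl libraries was Max (29.9 ± 0.225, SD, n = 2), Cdkn1b (17.6 ± 0.418), Mxd4 (15.7 ± 0.343), Cdk6 (7.63 ± 0.108), Ccnd1 (6.99 ± 0.757), Mxi1 (6.28 ± 0.487), Mxd1 (3.23 ± 0.161), Myc (3.03 ± 0.338), Ccnd3 (1.94 ± 0.0861) and Ccnd2 (0.400 ± 0.0840). Ccnd1 and Mxi1, and Mxd1 and Myc, overlapped between libraries, while the other neighbours in this order did not. Myc thus amounted to 0.120 ± 0.0102 (SD, n = 2) of the summed RPKM of the 3 MXD genes. After 4T1 CM the order in STAT5fl/fl was different, with Myc (41.1 ± 0.361) and Ccnd1 (39.8 ± 1.83) at the top, overlapping each other, and Cdk6 (21.5 ± 0.426), Max (17.9 ± 2.55) and Mxi1 (16.8 ± 0.149) next. Max and Mxi1 overlapped there.

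**Figure D1:**
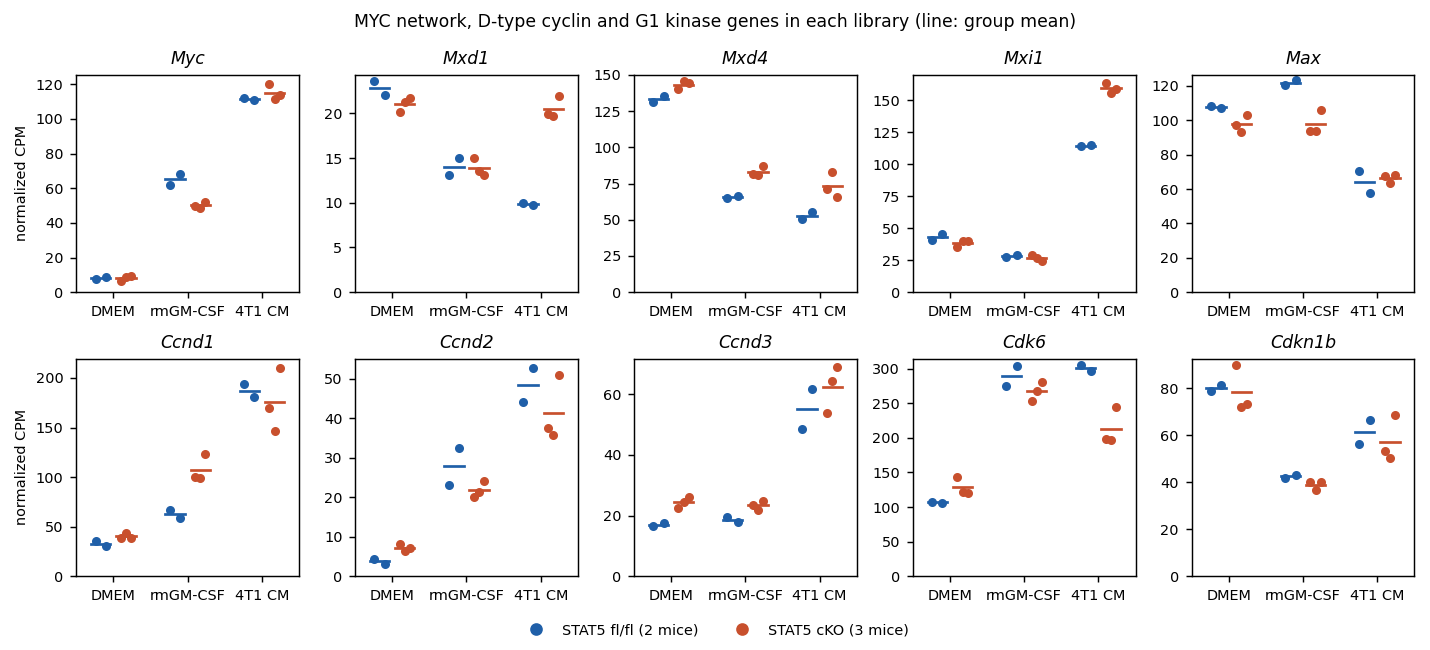
Normalized CPM (linear vertical axes from 0) of the 10 genes in all 15 libraries, by treatment, with STAT5fl/fl in blue (2 mice), STAT5cKO in orange (3 mice) and a line at each group mean. Mxd1 with 4T1 CM stood at 9.80 and 9.97 CPM in STAT5fl/fl and between 19.7 and 21.9 in STAT5cKO, and Myc rose in every treated library.

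The first question was how the 10 genes responded to rmGM-CSF, and whether loss of STAT5 changed that response. In STAT5fl/fl macrophages 4 of the 10 rose (Myc, Ccnd1, Ccnd2 and Cdk6) and 4 fell (Mxd1, Mxd4, Mxi1 and Cdkn1b), at an adjusted p below 0.01, while 15.9% of all tested genes rose and 12.6% fell. The same 4 rose and the same 4 fell in STAT5cKO macrophages, where 13.3% of tested genes rose and 10.2% fell. The median absolute log2 fold change of the 10 was 0.92 in STAT5fl/fl and 0.90 in STAT5cKO, against 0.28 and 0.20 over all tested genes. Both genotypes' responses were measured against their own DMEM libraries.

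Myc stood at 7.59 and 8.89 CPM in the unstimulated STAT5fl/fl libraries and at 62.1 and 68.1 CPM after rmGM-CSF. In STAT5cKO it stood at 6.71, 8.79 and 9.14 CPM and rose to 49.5, 48.9 and 52.4 CPM. Each treated library was far above each unstimulated one, and the treated STAT5cKO libraries all lay below the treated STAT5fl/fl ones. The log2 fold change was 2.98 ± 0.11 (standard error, SE) in STAT5fl/fl (adjusted p = 1.1e-12) and 2.61 ± 0.09 in STAT5cKO (adjusted p = 6.33e-13).

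Ccnd2, the D-type cyclin with the lowest resting level, had 4.32 and 3.20 CPM in unstimulated STAT5fl/fl libraries and 23.1 and 32.5 CPM after rmGM-CSF. In STAT5cKO it started at 8.09, 6.53 and 7.12 CPM and reached 20.2, 21.2 and 24.1 CPM. Resting levels were thus higher without STAT5 in all 3 libraries, and treated levels overlapped between the genotypes. The log2 rise was 2.90 ± 0.23 in STAT5fl/fl (adjusted p = 1.58e-08) and 1.59 ± 0.17 in STAT5cKO (adjusted p = 1.12e-06). The difference between these rises, -1.31 ± 0.29 on the log2 scale, fell just short of the threshold (adjusted p = 0.011) and passed it with mouse as a block (adjusted p = 0.00123). DESeq2 placed it at 2.92e-05 and the edgeR likelihood ratio test at 5.59e-05.

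Ccnd1, the D-type cyclin with the highest level, ended higher without STAT5. Its level was 35.4 and 30.4 CPM in unstimulated STAT5fl/fl libraries and 67.2 and 58.8 CPM after rmGM-CSF. In STAT5cKO the levels were 38.3, 43.3 and 38.8 CPM and then 99.8, 99.0 and 123 CPM. All 3 treated STAT5cKO libraries were above both treated STAT5fl/fl libraries. The log2 rise was 0.94 ± 0.15 in STAT5fl/fl (adjusted p = 8.55e-05) and 1.42 ± 0.12 in STAT5cKO (adjusted p = 5.45e-08), and the difference between the rises, 0.48 ± 0.19, did not pass (adjusted p = 0.214).

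Cdk6 rose from 108 and 106 to 274 and 303 CPM in STAT5fl/fl, and from 144, 122 and 120 to 254, 268 and 281 CPM in STAT5cKO. The log2 changes were 1.44 ± 0.11 (adjusted p = 7.19e-09) and 1.06 ± 0.09 (adjusted p = 3.31e-08). Ccnd3 was the D-type cyclin that did not pass in either genotype with rmGM-CSF, at log2 changes of 0.13 ± 0.14 (95% interval -0.17 to 0.43) and -0.07 ± 0.11 (-0.30 to 0.16). Max, likewise, gave 0.18 ± 0.09 (adjusted p = 0.108) and 0.00 ± 0.07 (adjusted p = 0.969).

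The 3 MXD repressors and Cdkn1b fell in both genotypes. Mxd4 went from 131 and 135 to 65.3 and 66.1 CPM in STAT5fl/fl, and from 140, 146 and 144 to 81.3, 80.9 and 87.0 CPM in STAT5cKO. Its log2 changes were -1.02 ± 0.09 and -0.79 ± 0.07 (adjusted p = 5.87e-08 and 1.21e-07), and the treated groups did not overlap. Cdkn1b fell from 78.8 and 81.5 to 42.0 and 43.2 CPM in STAT5fl/fl and from between 72.0 and 89.9 to between 36.8 and 40.1 CPM in STAT5cKO, a log2 change of -0.91 ± 0.13 and -1.01 ± 0.11 (adjusted p = 2.94e-05 and 1.2e-06). Mxd1 changed by -0.70 ± 0.10 and -0.60 ± 0.08, and Mxi1 by -0.59 ± 0.09 and -0.52 ± 0.07. Without mouse 112 the Mxd1 change in STAT5fl/fl was -0.56, with an adjusted p of 0.0115.

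The second question was the response to 4T1 CM. In STAT5fl/fl macrophages 6 of the 10 rose (Myc, Mxi1, Ccnd1, Ccnd2, Ccnd3 and Cdk6) and 3 fell (Mxd1, Mxd4 and Max), against 19.2% and 18.2% of tested genes. In STAT5cKO the same 6 rose and Mxd4, Max and Cdkn1b fell, against 19.3% and 18.4%. Myc reached 112 and 111 CPM in STAT5fl/fl and 120, 112 and 114 CPM in STAT5cKO. These levels overlapped, and the log2 rises were 3.76 ± 0.11 and 3.80 ± 0.09 (adjusted p = 5.71e-14 and 1.97e-15).

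**Figure D2:**
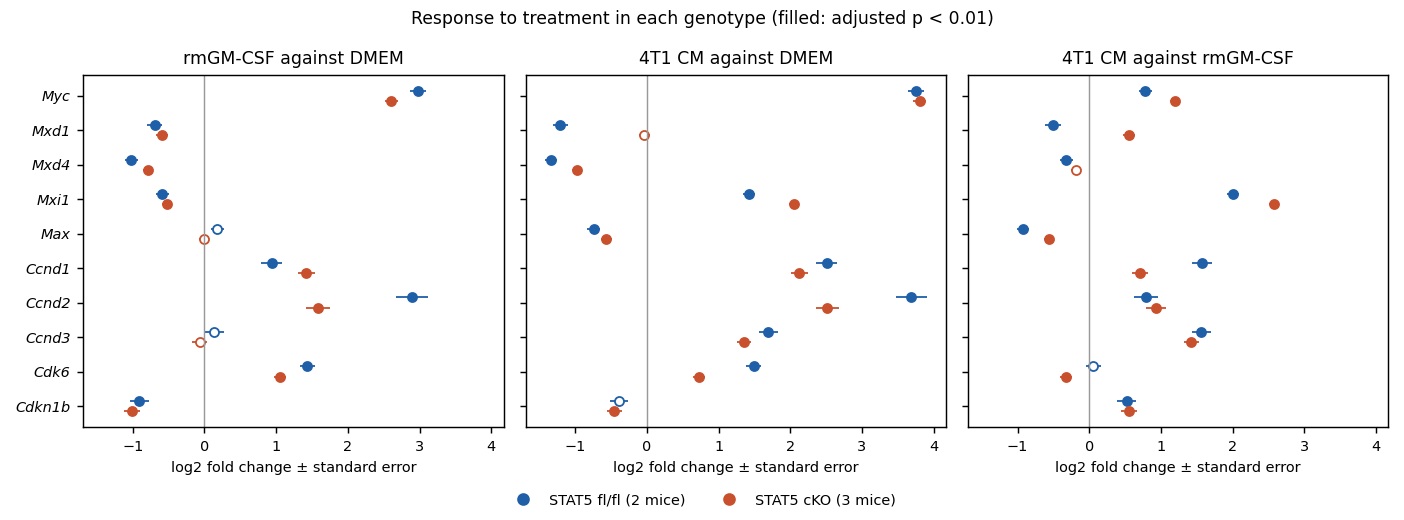
Log2 fold change with its standard error (horizontal axis) of each gene for the 3 treatment contrasts, in STAT5fl/fl (blue, 2 mice) and STAT5cKO (orange, 3 mice), with filled points at an adjusted p below 0.01. With 4T1 CM against DMEM, Mxd1 was at -1.21 in STAT5fl/fl and at -0.04 in STAT5cKO.

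Mxi1 was the repressor that went in opposite directions with the treatments. It fell with rmGM-CSF, but with 4T1 CM it rose from 40.5 and 45.2 to 114 and 115 CPM in STAT5fl/fl and from 35.7, 39.8 and 39.7 to 163, 156 and 159 CPM in STAT5cKO. Every 4T1 CM library was above every other library, and the STAT5cKO libraries were above both STAT5fl/fl ones. The log2 rise was 1.42 ± 0.08 in STAT5fl/fl (adjusted p = 2.3e-10) and 2.05 ± 0.07 in STAT5cKO (adjusted p = 9.03e-14). In STAT5fl/fl macrophages Mxi1 made up 24.9% ± 1.27 (SD, n = 2) of the summed MXD transcripts (RPKM) at rest. This share was 30.0% ± 0.396 after rmGM-CSF and 68.8% ± 0.912 after 4T1 CM.

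Mxd1 had 23.6 and 22.0 CPM in unstimulated STAT5fl/fl libraries and 9.97 and 9.80 CPM after 4T1 CM. In STAT5cKO the levels were 20.1, 21.3 and 21.7 CPM before and 20.0, 19.7 and 21.9 CPM after. The STAT5cKO libraries before and after 4T1 CM overlapped. The log2 change was -1.21 ± 0.10 in STAT5fl/fl (adjusted p = 3.98e-08) and -0.04 ± 0.08 in STAT5cKO (adjusted p = 0.731, 95% interval -0.20 to 0.13). The difference between them was 1.17 ± 0.13 (adjusted p = 8.25e-05).

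Max fell with 4T1 CM by 0.74 ± 0.09 on the log2 scale in STAT5fl/fl and by 0.56 ± 0.07 in STAT5cKO (adjusted p = 2.16e-06 and 4.14e-06). Its levels after 4T1 CM, 70.8 and 57.8 CPM against 67.3, 63.3 and 68.1 CPM, overlapped between the genotypes. Ccnd1 rose by 2.51 ± 0.15 and 2.13 ± 0.12, Ccnd2 by 3.69 ± 0.22 and 2.52 ± 0.16, and Ccnd3 by 1.69 ± 0.13 and 1.35 ± 0.10, in STAT5fl/fl and STAT5cKO respectively. For Ccnd2 the difference between the rises, -1.17 ± 0.28, had an adjusted p of 0.0298, and of 0.00379 with mouse as a block. This difference stayed uncalled with TMM normalization, in limma with mouse as a random effect and when only the compared libraries were fitted. Cdkn1b changed by -0.39 ± 0.13 in STAT5fl/fl (adjusted p = 0.0178, and 0.0058 with mouse as a block) and by -0.45 ± 0.10 in STAT5cKO (adjusted p = 0.00159, and up to 0.0564 without mouse 114 or with the other libraries left out of the fit). The STAT5fl/fl change stayed uncalled with TMM normalization and with the likelihood ratio test.

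Compared directly, 4T1 CM gave more Myc, Mxi1, Ccnd1, Ccnd2, Ccnd3 and Cdkn1b than rmGM-CSF and less Max in both genotypes. In STAT5fl/fl 6 genes were higher and 3 lower (13.8% and 16.7% of tested genes), and in STAT5cKO 7 were higher and 2 lower (16.6% and 17.5%). Mxi1 was 4.02-fold higher in STAT5fl/fl and 5.94-fold higher in STAT5cKO, and Ccnd3 2.95-fold and 2.68-fold higher. Mxd1 was lower with 4T1 CM in STAT5fl/fl (log2 -0.51 ± 0.11, adjusted p = 0.00154) and higher in STAT5cKO (0.56 ± 0.08, adjusted p = 2.93e-05). In the STAT5fl/fl comparison the count without mouse 112 fell from 9 to 5. The calls lost in that fit, or without mouse 113, were those of Mxd1, Mxd4, Ccnd2 and Cdkn1b (adjusted p up to 0.106, 0.155, 0.0231 and 0.165), and the Mxd4 call was also lost without mouse 114 and with TMM normalization. Cdk6 was lower with 4T1 CM in STAT5cKO (-0.33 ± 0.08, adjusted p = 0.00409, and up to 0.0533 without mouse 114 or 115).

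The third question was the genotype difference under a single treatment. In DMEM none of the 10 passed in the edgeR quasi-likelihood test, where 0.938% of tested genes were higher in STAT5cKO and 1.55% lower. At an unadjusted p under 0.05 in that test were 3 of the 10 and 2824 of the 13005 tested genes. Ccnd2 and Ccnd3 were nearest. Ccnd2 was 1.93-fold higher in STAT5cKO (log2 0.95 ± 0.24, adjusted p = 0.0259), and Ccnd3, at 22.6, 24.5 and 26.1 CPM against 16.5 and 17.5 CPM, was 1.44-fold higher (0.52 ± 0.12, adjusted p = 0.017). Neither pair of groups overlapped, but of the 10 only Myc and Cdkn1b did overlap between genotypes in DMEM, so this does not set the 2 cyclins apart. DESeq2 and the likelihood ratio test called 2 of the 10, these same 2 cyclins. Neither cyclin was called with TMM normalization or in limma with mouse as a random effect.

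With rmGM-CSF 4 of the 10 differed. Ccnd1 and Mxd4 were higher in STAT5cKO, and Myc and Max were lower, while 3.57% of tested genes were higher and 6.24% lower. Ccnd1 was 1.70-fold higher (log2 0.77 ± 0.13, adjusted p = 0.000509, and 0.034 without mouse 113). Mxd4 was 1.26-fold higher (0.34 ± 0.08, adjusted p = 0.00801). Myc, at 48.9 to 52.4 against 62.1 and 68.1 CPM, was lower by 0.38 ± 0.09 on the log2 scale (adjusted p = 0.00502). Max, at 93.5, 93.8 and 106 against 120 and 123 CPM, was lower by 0.32 ± 0.08 (adjusted p = 0.00902). Those calls changed with the animals included. Without mouse 113 none of the 4 was called, without mouse 112 only Ccnd1 was, 2 were without mouse 114 and without mouse 115, and 3 were without mouse 116. The largest adjusted p without 1 mouse was 0.128 for Myc, 0.0787 for Mxd4 and 0.0593 for Max, and the Max call was also lost with TMM normalization.

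**Figure D3:**
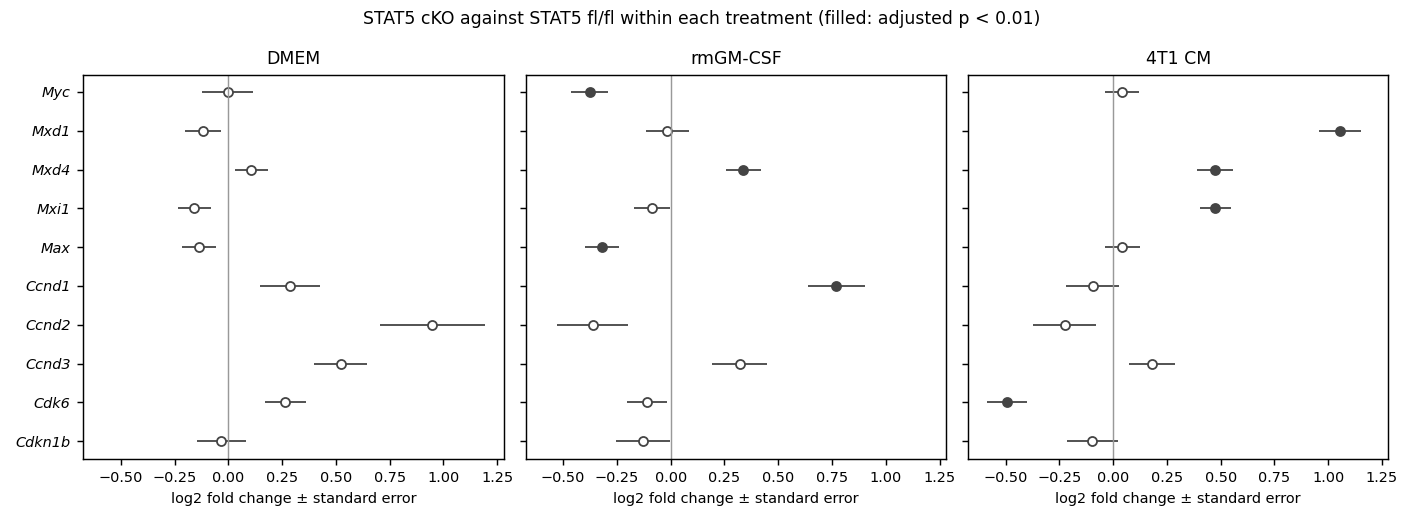
Log2 fold change of STAT5cKO against STAT5fl/fl with its standard error (horizontal axis) within DMEM, rmGM-CSF and 4T1 CM, with filled points at an adjusted p below 0.01. Filled points appear in the rmGM-CSF panel (4) and the 4T1 CM panel (4), where Mxd1 stood at 1.05.

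With 4T1 CM 4 of the 10 differed again, the 3 MXD genes upwards and Cdk6 downwards in STAT5cKO, while 4.13% of tested genes were higher and 3.57% lower. Mxd1 was 2.08-fold higher (log2 1.05 ± 0.10, adjusted p = 1.98e-06) and Mxi1 1.39-fold higher (0.47 ± 0.07, adjusted p = 0.000227). Both kept their call under all 15 alternatives. Mxd4, at 71.2, 82.9 and 65.6 against 50.3 and 55.2 CPM, was also 1.39-fold higher (0.47 ± 0.08, adjusted p = 0.000809). Cdk6, at 198, 196 and 245 against 304 and 296 CPM, was lower by 0.49 ± 0.09 (adjusted p = 0.00146). Without mouse 112 or without mouse 113, and when the other 10 libraries were left out of the fit, 2 of the 4 were called, since Mxd4 (adjusted p up to 0.037) and Cdk6 (up to 0.0282) were lost. Cdk6 was also lost without mouse 115. Myc did not pass with 4T1 CM (log2 0.04 ± 0.08, 95% interval -0.13 to 0.21), nor did Ccnd1 (-0.09 ± 0.12), Ccnd2 (-0.22 ± 0.15) or Ccnd3 (0.18 ± 0.11).

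The interaction tests asked whether the genotype difference itself depended on the treatment. Between 4T1 CM and DMEM it differed for 3 of the 10 (1.27% of tested genes, 165 genes, or 302 with mouse as a block and 24 to 99 with 1 mouse left out, the lowest without mouse 113). These were Mxd1, Mxi1 (0.63 ± 0.10, adjusted p = 0.0022) and Cdk6 (-0.76 ± 0.13, adjusted p = 0.00368). In DMEM the Cdk6 difference was 0.27 ± 0.10 (adjusted p = 0.112). Only the Mxd1 interaction was called without mouse 112, 113, 114 or 115, and the largest adjusted p was then 0.105 for Mxi1 and 0.0914 for Cdk6. Between 4T1 CM and rmGM-CSF it differed for Mxd1 (1.07 ± 0.14, adjusted p = 0.000163) and Mxi1 (0.56 ± 0.11, adjusted p = 0.00696), 2 of the 10 against 1.47% of tested genes. Without mouse 113 neither was called, with adjusted p up to 0.0218 for Mxd1 and 0.147 for Mxi1, without mouse 112 or 115 only Mxd1 was, and without mouse 116 the Mxi1 call was lost. For Ccnd1 that interaction was -0.86 ± 0.18, with an adjusted p of 0.0114, and of 0.000529 with mouse as a block. That of Ccnd1 stayed uncalled with TMM normalization and when only the compared libraries were fitted. Between rmGM-CSF and DMEM none of the 10 passed in the edgeR quasi-likelihood test, against 3.11% of tested genes. At an unadjusted p under 0.05 in that test were 4 of the 10 and 1901 of the 13005 tested genes. DESeq2 and the likelihood ratio test called 1 of the 10, Ccnd2.

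Set per length, the balance between Myc and the 3 MXD genes differed between DMEM and either stimulus. The ratio of Myc to the summed MXD genes was 0.120 ± 0.0102 (SD, n = 2) in STAT5fl/fl and 0.118 ± 0.0157 (n = 3) in STAT5cKO in DMEM. After rmGM-CSF it was 1.72 ± 0.0594 and 1.18 ± 0.0442, and after 4T1 CM 1.68 ± 0.0523 and 1.21 ± 0.0501. The STAT5fl/fl and STAT5cKO libraries did not overlap under either stimulus. The similar ratios were reached from different levels, since in STAT5fl/fl Myc was at 24.0 RPKM and the MXD sum at 13.9 with rmGM-CSF, and at 41.1 and 24.4 with 4T1 CM. Myc over Max, in contrast, overlapped between the genotypes under each treatment and was 0.102 ± 0.0121, 0.707 ± 0.0347 and 2.33 ± 0.313 in STAT5fl/fl in DMEM, rmGM-CSF and 4T1 CM. These ratios are built from the genes already described and were given no test. Mnt, a further MAX-binding repressor described below, is not part of the MXD sum, so the ratios describe the MXD genes only. In DMEM, rmGM-CSF and 4T1 CM, Mnt stood at 27.9, 8.91 and 7.12 RPKM in STAT5fl/fl and at 23.6, 11.8 and 11.7 RPKM in STAT5cKO.

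**Figure D4:**
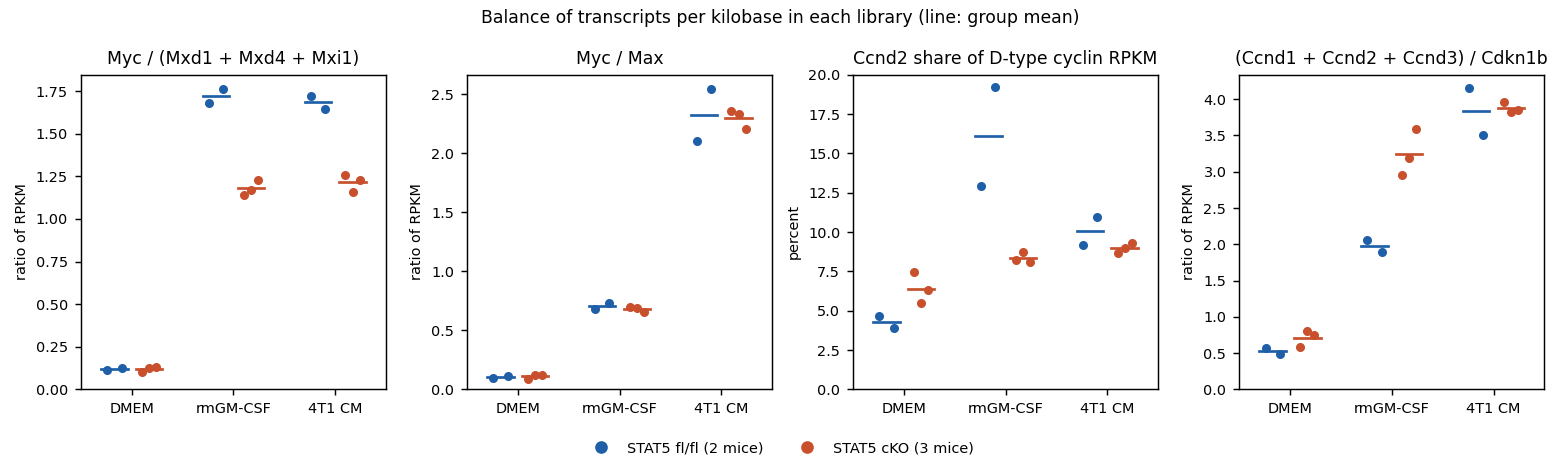
Ratios and shares of RPKM per library (linear vertical axes from 0), by treatment, for Myc over the MXD sum, Myc over Max, the Ccnd2 share of D-type cyclin transcripts and the D-type cyclin sum over Cdkn1b, with lines at the group means. Myc over the MXD sum was between 1.68 and 1.76 in STAT5fl/fl and between 1.14 and 1.23 in STAT5cKO with rmGM-CSF.

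The make-up of the D-type cyclins was described in the same way. Ccnd1 was the main one in every group, at 70.6% to 82.0% of the summed RPKM on average. Ccnd2 took 4.27% ± 0.556 (SD, n = 2) in unstimulated STAT5fl/fl macrophages and 16.1% ± 4.45 with rmGM-CSF, with libraries at 13.0% and 19.2%. In STAT5cKO the Ccnd2 share was 6.41% ± 0.983 (n = 3) and then 8.37% ± 0.333, so that the treated groups did not overlap. The summed D-type cyclin level over Cdkn1b went from 0.530 ± 0.0554 to 1.98 ± 0.113 with rmGM-CSF in STAT5fl/fl and from 0.710 ± 0.112 to 3.24 ± 0.324 in STAT5cKO. With 4T1 CM it was 3.83 ± 0.456 and 3.88 ± 0.0715.

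Across the 15 libraries, the genes whose log2 CPM followed Myc most closely were Zfp36 (Pearson r = 0.992), Tnfrsf1a (0.988) and Noct (0.988). For Mxd1 they were Slc45a4 (0.933), Smarca2 (0.903) and Nup210 (0.901), for Ccnd1 Adam8 (0.982), Inf2 (0.974) and Cdkn2b (0.972), and for Ccnd2 Acsl4 (0.974), Bcl2 (0.973) and Daxx (0.973). Within the 10, Myc was nearest to Ccnd2 (0.962) and opposite to Mxd4 (-0.940), and Mxi1 was opposite to Max (-0.899). The 15 points come from 5 mice and 6 groups, so these values mostly describe group means.

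Other members of the MYC network included Mnt, which encodes a MAX-binding repressor, and Mycl, a MYC family gene. Of 8 such genes 5 were tested, since Mycn, Mxd3 and Mlxipl were at or under 0.389 CPM in every library. Mycl is described below and is left out of the counts here. In STAT5fl/fl, 2 genes fell with rmGM-CSF, where 12.6% of all tested genes fell. With 4T1 CM 0 rose and 3 fell, where 19.2% of all tested genes rose and 18.2% fell. The medians given for the lists that follow compare with -0.01 and 0.02 over all tested genes in these comparisons. Mnt stood at 125 to 133 CPM in unstimulated STAT5fl/fl libraries, at 36.7 to 45.8 with rmGM-CSF and at 32.3 to 33.5 with 4T1 CM. In STAT5cKO it was at 104 to 112, 51.0 to 57.5 and 53.1 to 56.5 CPM, and the genotypes did not overlap under any treatment. STAT5cKO was lower in DMEM, where the difference did not pass, and higher after either stimulus. Mnt was 1.32-fold higher in STAT5cKO with rmGM-CSF (log2 0.41 ± 0.09, adjusted p = 0.00309) and 1.65-fold higher with 4T1 CM (0.72 ± 0.09, adjusted p = 2.41e-05). Like Mxd1, it differed in its genotype effect between 4T1 CM and DMEM (0.96 ± 0.12, adjusted p = 0.000184). Unlike Mxd1, Mnt also differed between rmGM-CSF and DMEM (0.65, called at an adjusted p below 0.01 in edgeR), where Mxd1 gave 0.10 ± 0.13. Mycl had 4 to 14 fragments per library in DMEM, 63 to 134 with rmGM-CSF and 1 to 6 with 4T1 CM over both genotypes. It passed the low-count filter only through the rmGM-CSF libraries, so that its higher level there is given as a description, with no test. Mga, a further MAX partner, fell in STAT5fl/fl by 0.44 ± 0.09 with rmGM-CSF and by 1.10 ± 0.10 with 4T1 CM.

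Genes known to be induced by MYC moved by smaller amounts than Myc. Of 20 tested, 7 rose with rmGM-CSF in STAT5fl/fl and the other 13 did not pass, against 15.9% of all tested genes that rose, with a list median of 0.26. Nop58 (1.04 ± 0.09) and Ddx21 (0.82 ± 0.09), both of ribosome production, and Eif4e (0.94 ± 0.09), the cap-binding translation factor, were among them. With 4T1 CM 6 rose and 3 fell, against 19.2% and 18.2%, with a list median of 0.15. Odc1, the rate-limiting enzyme of polyamine synthesis, rose from between 10.2 and 10.8 to between 42.5 and 60.6 CPM in STAT5fl/fl (2.29 ± 0.14, adjusted p = 3.25e-10) and was 0.61 ± 0.11 higher again in STAT5cKO with 4T1 CM (adjusted p = 0.000848). Between the genotypes, 1 of the 20 was lower in STAT5cKO with rmGM-CSF (Fbl, -0.38 ± 0.08, adjusted p = 0.00246), near the 6.24% of all tested genes. With 4T1 CM 1 was higher (Odc1) and 1 lower (Fbl, -0.34 ± 0.08, adjusted p = 0.00787), against 4.13% and 3.57%. Of 6 genes of MYC protein turnover, Fbxw7, which marks MYC for degradation, was the 1 called in the DMEM genotype comparison (1.55% of tested genes were lower), at 43.4 to 47.1 CPM in STAT5cKO against 83.3 and 94.0 in STAT5fl/fl (-0.98 ± 0.09, adjusted p = 1.42e-05). It was also the 1 called with rmGM-CSF (-0.62 ± 0.10, adjusted p = 0.000298, against 6.24% lower), and with 4T1 CM the 1 called was Usp36, a deubiquitinase, which was higher in STAT5cKO (0.54 ± 0.09, adjusted p = 0.000356, against 4.13% higher).

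**Figure D5:**
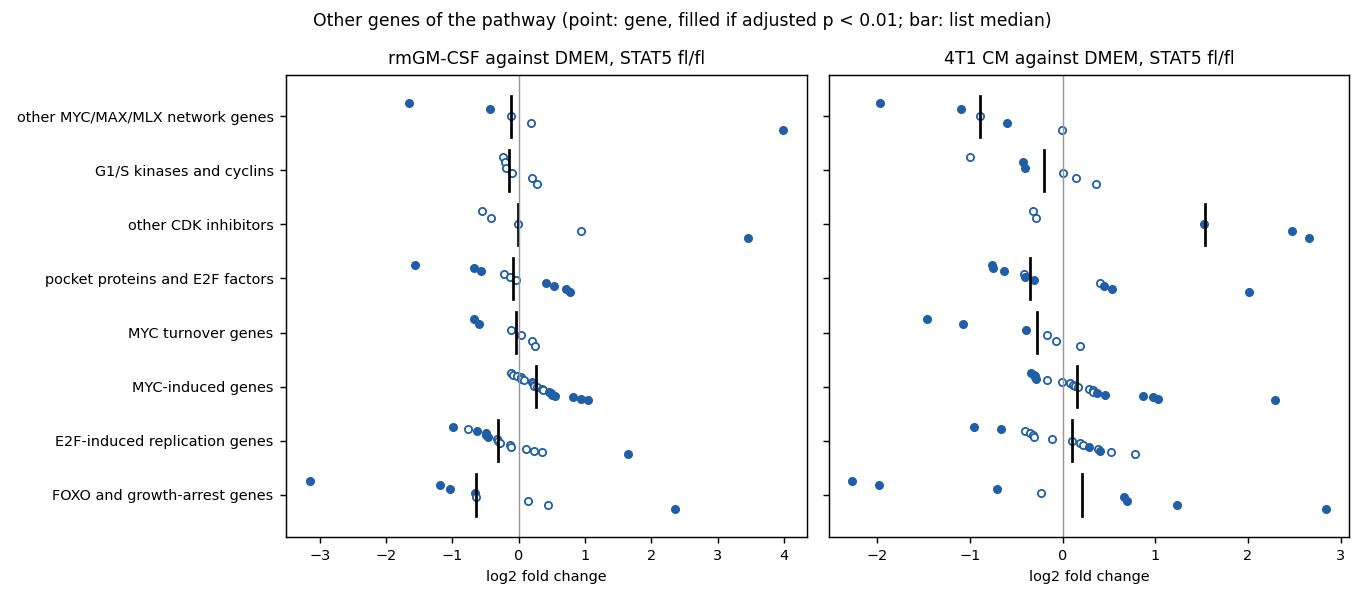
Log2 fold change (horizontal axis) of the tested genes of 8 pathway lists in STAT5fl/fl macrophages (2 mice), with rmGM-CSF against DMEM on the left and 4T1 CM against DMEM on the right, with filled points at an adjusted p below 0.01 and a bar at each list median. The median of the genes known to be induced by MYC was 0.26 with rmGM-CSF and 0.15 with 4T1 CM. Mycl is the filled point at 3.99 in the MYC network list on the left. It passed the low-count filter only through the rmGM-CSF libraries, so its fill is not read as a test result. Mycl also enters the median bar of that list.

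Among the other CDK inhibitors 5 of 6 were tested (Cdkn2a was not), of which 1 rose after rmGM-CSF and 3 rose after 4T1 CM in STAT5fl/fl, against 15.9% and 19.2% of tested genes (medians -0.02 and 1.53). Cdkn1a, which encodes p21, was at 78.7 and 79.4 CPM in DMEM and at 828 and 904 with rmGM-CSF in STAT5fl/fl, and at 147 to 159 and 466 to 498 CPM in STAT5cKO. The genotype difference was 0.95 ± 0.09 in DMEM (adjusted p = 1.52e-05) and -0.86 ± 0.09 with rmGM-CSF (adjusted p = 1.22e-06), and the interaction was -1.81 ± 0.13 (adjusted p = 1.19e-07). Cdkn2d rose with 4T1 CM by 1.53 ± 0.12 and Cdkn2b by 2.47 ± 0.29 in STAT5fl/fl. Of 6 G1/S kinases and cyclins (Cdk4, Cdk2, Ccne1, Ccne2, Ccna2 and Cdc25a), all 6 missed the threshold with rmGM-CSF in either genotype in edgeR. Their log2 changes were -0.24 to 0.28 in STAT5fl/fl and -0.66 to 0.32 in STAT5cKO. At an unadjusted p under 0.05 in that test were 2 and 3 of the 6, and 6248 and 5618 of the 13005 tested genes. With 4T1 CM Cdk2 (-0.43 ± 0.10) and Cdk4 (-0.41 ± 0.07) fell in STAT5fl/fl, 2 of 6 against 18.2% of tested genes.

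Downstream, 10 of 11 retinoblastoma family and E2F genes were tested. In STAT5fl/fl 4 rose and 3 fell with rmGM-CSF, and 3 rose and 5 fell with 4T1 CM (medians -0.08 and -0.35), against 15.9% and 12.6% of tested genes with the former and 19.2% and 18.2% with the latter. Rbl2, the p130 pocket protein of resting cells, was higher in STAT5cKO both with rmGM-CSF (56.9 to 61.7 against 40.5 and 44.4 CPM, log2 0.50 ± 0.07, adjusted p = 3.67e-05) and with 4T1 CM (0.49 ± 0.07, adjusted p = 7.05e-05). E2f2 was higher in STAT5cKO with rmGM-CSF (1.78 ± 0.39, adjusted p = 0.00352), from 13 to 17 fragments per library in STAT5fl/fl. In the same comparison E2f4 (-0.27 ± 0.06, adjusted p = 0.00646) and E2f8 (-0.60 ± 0.15, adjusted p = 0.00963) were lower in STAT5cKO, so that 2 of the 10 were higher and 2 lower, against 3.57% and 6.24% of tested genes. With 4T1 CM Rbl2 was the 1 called, against 4.13% higher. Of 15 replication and cell division genes induced by E2F factors, 1 rose and 5 fell with rmGM-CSF in STAT5fl/fl and 2 rose and 2 fell with 4T1 CM (medians -0.31 and 0.10). The last 2 counts, of 15, lie under the 19.2% and 18.2% of all tested genes, and those with rmGM-CSF compare with 15.9% and 12.6%. Mki67, a proliferation marker, was the one that rose with rmGM-CSF (1.65 ± 0.23, adjusted p = 1.87e-05), whereas Mcm2, Mcm3, Mcm6 and Mcm7, of the replicative helicase, and Cdt1 fell.

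Of 8 FOXO-related and growth-arrest genes, 1 rose and 4 fell with rmGM-CSF and 4 rose and 3 fell with 4T1 CM in STAT5fl/fl (medians -0.65 and 0.21), against 15.9% and 12.6%, and 19.2% and 18.2%, of tested genes. Bcl6, a transcriptional repressor, fell from 139 and 153 to 16.5 and 16.5 CPM with rmGM-CSF in STAT5fl/fl, while in STAT5cKO it rose from between 143 and 157 to between 263 and 276 CPM. Its genotype difference with rmGM-CSF, 4.02 ± 0.08 (adjusted p = 7.58e-16), was the largest of the tested pathway genes. Ccng2, an atypical cyclin linked to arrest, fell by 1.19 ± 0.09 with rmGM-CSF and by 1.98 ± 0.09 with 4T1 CM. Btg1, an antiproliferative gene, rose by 2.36 ± 0.10 and 2.84 ± 0.10, and was lower in STAT5cKO with either stimulus (-0.77 ± 0.08 and -0.45 ± 0.08, adjusted p = 3.37e-06 and 0.00133).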

How the data were processed

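RNA-seq libraries of BMDMs were made by the authors with a stranded TruSeq kit, trimmed with Trimmomatic 0.33 and aligned to GRCm38 with HISAT2 2.1.0. The deposited values are raw counts of fragments per gene, which the authors obtained with featureCounts 1.6.2, reverse stranded, with both ends mapped. Symbols were matched for 55144 of 55385 gene identifiers in a reference table, and exon lengths were those of the count table. Genes with CPM above 1 in at least 2 libraries were kept (13005 genes), scaled with RLE factors (0.945 to 1.08) and tested with edgeR 4.0.16 quasi-likelihood F tests in a 6-group model, with Benjamini-Hochberg adjustment over all tested genes and a threshold of 0.01. DESeq2 1.42.0, limma 3.58.1, other scalings, filters and thresholds, mouse as a block and leaving out each mouse were alternatives. The 3 treatments of a mouse share the animal, and deviations of its libraries from their group means correlated at 0.156 on average in STAT5cKO (9 pairs, lowest 0.0548) and 0.142 in STAT5fl/fl, where the deviations of 2 mice mirror each other and the 6 pairs hold only 3 distinct values. The genes named are the 10 members, up to 4 called genes per list and comparison with the smallest adjusted p, and the 3 genes most correlated with Myc, Mxd1, Ccnd1 and Ccnd2. Mcm2, Mcm6 and untested genes are named to complete small counts. The members and lists were chosen with earlier results of these data known. A count of 3 fragments corresponds to 0.123 to 0.192 CPM. Fragments are not independent molecules. Scripts were tested on simulated data. Fold changes use edgeR's fitted values, and figures were drawn with matplotlib 3.10.9.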

Additional observations from a re-analysis of the deposited data

Results flagged for a closer look

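In 5 cases, all among 3 of the 10 genes, the genotype difference changed between treatments by an interaction test in edgeR. For Mxd1 the log2 difference of STAT5cKO from STAT5fl/fl was larger with 4T1 CM than with DMEM by 1.17 (adjusted p = 8.25e-05) and larger than with rmGM-CSF by 1.07 (adjusted p = 0.000163). For Mxi1 these values were 0.63 (adjusted p = 0.0022) and 0.56 (adjusted p = 0.00696). For Cdk6 the value with 4T1 CM against DMEM was -0.76 (adjusted p = 0.00368). Only the Mxd1 value for 4T1 CM against DMEM kept its call under all 16 alternatives. Each of the others lost it under at least 1, as given with the interaction tests above. With 2 or 3 animals a group, single libraries could not be screened for outlying values.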

How the results depend on the processing

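Of 65 called gene-level values, 48 kept their call under every alternative run and 17 lost it under at least 1. The counts that follow are of the 10 genes. In DMEM, 0 of the 10 differed between genotypes (324 of the 13005 tested genes did). This became 2 without the low-count filter, with the likelihood ratio test, with DESeq2, at an adjusted p under 0.05 or when only the compared libraries were fitted. It was 1 with counts thinned to the smallest total. With 4T1 CM the count was 4, and 2 with only the compared libraries. For the interaction of rmGM-CSF with DMEM, 0 became 1 without the filter, with filterByExpr, the likelihood ratio test, DESeq2, the 0.05 threshold, only the compared libraries, the replicate block (mouse) or edgeR's legacy quasi-likelihood test. For 4T1 CM against rmGM-CSF the interaction count went from 2 to 1 with only the compared libraries. The thinned and legacy alternatives were chosen after seeing the data. Leaving out 1 mouse gave 0 to 3 genes for the genotype with rmGM-CSF, 2 to 4 with 4T1 CM, 5 to 9 for 4T1 CM against rmGM-CSF in STAT5fl/fl, and 0 to 1, 1 to 3 and 0 to 2 for the interactions of rmGM-CSF with DMEM, 4T1 CM with DMEM and 4T1 CM with rmGM-CSF.

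Over all genes, the genotype calls in DMEM went from 324 to 608 with the likelihood ratio test, 557 with DESeq2 and 910 at 0.05, those with rmGM-CSF from 1275 to 2145 at 0.05, and those with 4T1 CM from 1001 to 1957 at 0.05 and 280 with only the compared libraries. The interaction of rmGM-CSF with DMEM went from 404 to 622 at 0.05, and that of 4T1 CM with DMEM from 165 to 332, 363, 423 and 79 (likelihood ratio, DESeq2, 0.05, only the compared libraries), or 302 with the replicate block. The third interaction went from 191 to 302, 308 and 346 with the first 3 of these. Leaving out 1 mouse gave 47 to 243, 546 to 1010 and 334 to 835 for the genotype in DMEM, rmGM-CSF and 4T1 CM, and 134 to 271, 24 to 99 and 79 to 143 for the 3 interactions in the order above. It gave 1736 to 3618 for rmGM-CSF against DMEM, 2671 to 4720 for 4T1 CM against DMEM and 1696 to 3807 for 4T1 CM against rmGM-CSF in STAT5fl/fl, and 1833 to 2830 for rmGM-CSF against DMEM in STAT5cKO (3704, 4867, 3968 and 3053 with all mice). The cause was not tested.

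Signs turned only for values that were not called. Thinning moved Mxd1 between genotypes with rmGM-CSF to 0.0183. Leaving out 1 mouse gave, between genotypes in DMEM, Myc -0.11 to 0.12 and Cdkn1b -0.14 to 0.0245, with rmGM-CSF Mxd1 -0.10 to 0.0852, and with 4T1 CM Max -0.10 to 0.20, Ccnd1 -0.25 to 0.0214 and Cdkn1b -0.24 to 0.0248. It gave Max -0.0257 to 0.0219 for rmGM-CSF in STAT5cKO and Cdk6 -0.0384 to 0.15 for 4T1 CM against rmGM-CSF in STAT5fl/fl. For the interactions it gave Mxd1 -0.0391 to 0.25 and Mxi1 -0.0437 to 0.15 (rmGM-CSF with DMEM), Myc -0.11 to 0.16 and Cdkn1b -0.26 to 0.10 (4T1 CM with DMEM), and Ccnd2 -0.00917 to 0.24, Ccnd3 -0.36 to 0.10 and Cdkn1b -0.10 to 0.13 (4T1 CM with rmGM-CSF). Replicate block fits changed 4 member calls, all given beside their results (Ccnd2 in 2 interactions, Ccnd1 in 1, Cdkn1b with 4T1 CM in STAT5fl/fl), and no other. Depth was 16016736 to 22883108 fragments, and the low counts of Ccnd2 in DMEM limit its values.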
